A study of Mus musculus with 6 samples.

Results

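The S100 family was described in RNA-seq data from 6 libraries of L-GMP, the leukaemic counterpart of the granulocyte-macrophage progenitor from which granulocytes and monocytes arise. The genes were taken by symbol from the deposited expression table: S100a1, S100a3, S100a4, S100a6, S100a8, S100a9, S100a10, S100a11 and S100a13, which are 9 of the table's 47643 genes, 1 row each. The 3 KO libraries came from L-GMP of C57BL/6 mice labelled as knockout for Prkaa1 and Prkaa2, the genes of both catalytic subunits of the energy sensor AMP-activated protein kinase (AMPK). The 3 WT libraries came from L-GMP of C57BL/6 mice labelled wild type. Both groups are leukaemic, and the labels give neither the oncogene, the means of deletion, the age of the mice nor the number of mice behind a group. P-values therefore measure only how far these libraries scatter, and that scatter may be technical.

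S100 proteins are small proteins with a pair of EF-hands, the helix-loop-helix motif that binds calcium. Most work as dimers that change shape with calcium and then grip a partner protein, and several are also released and act on cell surface receptors. In the myeloid lineage S100A8 and S100A9 pair as calprotectin, which fills the cytosol of neutrophils and monocytes, binds zinc and manganese and carries arachidonic acid to the phagocyte oxidase. Most S100A genes lie side by side in a cluster on mouse chromosome 3, so neighbours in that cluster can be compared at the same time as relatives.

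Levels are given as FPKM, reads per gene scaled by gene length and library size, and a test means limma on log2(FPKM + 1) with Benjamini-Hochberg adjustment over 9108 genes whose mean was at least 1 FPKM. Between 7966649 and 9039890 whole reads could be recovered from the values of a KO library, and between 7650270 and 11020103 from those of a WT library. The targeted gene Prkaa1 had 1.11, 0.735 and 0.548 FPKM in the KO libraries, against 2.01, 2.20 and 1.80 FPKM in the WT libraries (log2 fold change -0.75, SE 0.13, adjusted p = 0.00112 in limma). Prkaa2 was represented by 4 reads over the KO libraries and 2 over the WT libraries, so it checks nothing at this depth. Of 10 GMP markers, 8 were tested, with 5 higher and 3 lower in KO, where 38.0% of all tested genes were called higher and 40.4% lower. The summed level of the 10 markers was 16707 to 17004 FPKM in KO and 7841 to 8141 FPKM in WT, led by Elane and Ctsg. Kit averaged 1.43 FPKM in KO and 0.250 FPKM in WT. Cd34, a surface marker of progenitors, averaged 3.51 FPKM in KO and 27.8 FPKM in WT. In such bulk libraries fewer cells of a type and less RNA per cell cannot be told apart.

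Promoter windows, 250 bases before to 50 bases after the RefSeq start in build GRCm38.p6, were found for 8 of the 9 genes, S100a10 having none in the table used. They are printed 5′ to 3′ on the gene's own strand, with TATAAA (the TATA box) and GGGCGG (the GC box) in capitals. The first 4 are shown because the genes had the largest folds of their roles, S100a4 because it carries the same TATA box as S100a8 beside a smaller fold, and S100a1 because it faces S100a13.
S100a8, chr3:90668821-90669120, plus strand: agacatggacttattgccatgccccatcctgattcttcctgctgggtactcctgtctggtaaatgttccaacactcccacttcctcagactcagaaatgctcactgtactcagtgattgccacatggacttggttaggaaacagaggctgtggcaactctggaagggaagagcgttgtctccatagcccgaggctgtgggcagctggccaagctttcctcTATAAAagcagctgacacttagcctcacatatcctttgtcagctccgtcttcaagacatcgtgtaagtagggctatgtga
S100a9, chr3:90695672-90695971, minus strand: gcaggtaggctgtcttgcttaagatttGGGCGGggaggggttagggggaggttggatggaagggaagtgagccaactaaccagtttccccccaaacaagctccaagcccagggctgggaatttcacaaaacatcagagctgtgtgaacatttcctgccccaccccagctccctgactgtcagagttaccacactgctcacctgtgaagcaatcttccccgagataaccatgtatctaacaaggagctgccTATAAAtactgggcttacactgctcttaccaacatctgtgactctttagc
S100a6, chr3:90612644-90612943, plus strand: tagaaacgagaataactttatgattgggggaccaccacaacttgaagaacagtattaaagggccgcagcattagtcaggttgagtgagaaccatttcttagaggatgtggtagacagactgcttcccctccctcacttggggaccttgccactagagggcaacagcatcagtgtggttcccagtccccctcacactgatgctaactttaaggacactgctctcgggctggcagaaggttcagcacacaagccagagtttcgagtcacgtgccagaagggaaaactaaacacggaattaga
S100a11, chr3:93520246-93520545, plus strand: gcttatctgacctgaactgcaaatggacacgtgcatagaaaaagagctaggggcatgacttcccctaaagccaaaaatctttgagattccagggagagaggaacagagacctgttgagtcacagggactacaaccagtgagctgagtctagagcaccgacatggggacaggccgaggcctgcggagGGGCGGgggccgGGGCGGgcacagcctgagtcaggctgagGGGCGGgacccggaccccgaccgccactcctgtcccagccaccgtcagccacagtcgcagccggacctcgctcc
S100a4, chr3:90603520-90603819, plus strand: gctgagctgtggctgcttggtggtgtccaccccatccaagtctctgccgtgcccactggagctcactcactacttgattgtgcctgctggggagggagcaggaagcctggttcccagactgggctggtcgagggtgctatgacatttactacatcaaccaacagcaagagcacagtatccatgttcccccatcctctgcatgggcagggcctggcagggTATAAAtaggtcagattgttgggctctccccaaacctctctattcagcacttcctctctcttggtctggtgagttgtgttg
S100a1, chr3:90514281-90514580, minus strand: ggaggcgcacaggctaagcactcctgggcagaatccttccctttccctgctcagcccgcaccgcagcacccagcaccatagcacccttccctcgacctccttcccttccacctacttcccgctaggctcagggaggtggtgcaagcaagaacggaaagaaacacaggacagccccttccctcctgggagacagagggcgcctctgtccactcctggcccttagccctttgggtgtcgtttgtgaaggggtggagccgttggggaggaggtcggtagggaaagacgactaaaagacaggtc

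S100a8 and S100a4 both carry TATAAA just before the start, at -30 and -31, counted from 0 at the first transcribed base. In S100a9 the same letters begin at position 0, the annotated start itself. TATAAA also lies at -52 in 1 S100a3 window, so 4 of the 11 windows of these genes hold it. TATAAA was found in 13.6% of all 32851 windows of this length, searching both strands for every motif. S100a11 has 3 GC boxes, the first at -64, while S100a9 has 1, at -223, and 1 S100a3 window has 1, at -116. At least 1 GC box was found in 3 of the 11 windows and in 35.7% of all windows. The C/EBP motif TTNNGCAA, bound by the CCAAT/enhancer-binding proteins of myeloid cells, was found in 1 of the 11 windows of these genes, that of S100a9 at -236, and in 10.8% of all windows. The core GAGGAA of the PU.1 site was found in the S100a8, S100a11, S100a4 and 1 S100a3 window, and in 28.3% of all windows. The AP-1 motif TGANTCA occurred in S100a11 only among the 11, and in 7.81% of all windows. The windows of S100a6, S100a1 and S100a13 hold none of these letters. A match is a description of the letters and not a binding site. S100a1 and S100a13 are transcribed away from each other, their RefSeq starts lie 105 bases apart, and their windows share 204 bases.

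Of the 9 genes, 8 reached the minimum mean and all 8 were higher in KO, against 38.0% of the 9108 genes tested that were called higher and 40.4% called lower (78.4% in either direction, with 21.6% not passed). Their median log2 fold change was 1.88, beside -0.02 for all tested genes, whose quartiles were -0.59 and 0.54. The values ranged from 0.50 for S100a13 to 7.98 for S100a8. Over all genes 3464 were called higher and 3676 lower, but 2074 higher and 5383 lower once libraries were rescaled to equal FPKM sums, where 7 of the 8 S100 genes were higher and S100a13 did not pass. In all 8 the 3 KO libraries lay above the 3 WT libraries, which held for 39.1% of the tested genes, while 41.6% lay wholly below and 80.6% did not overlap in one direction or the other.

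**Figure D1:**
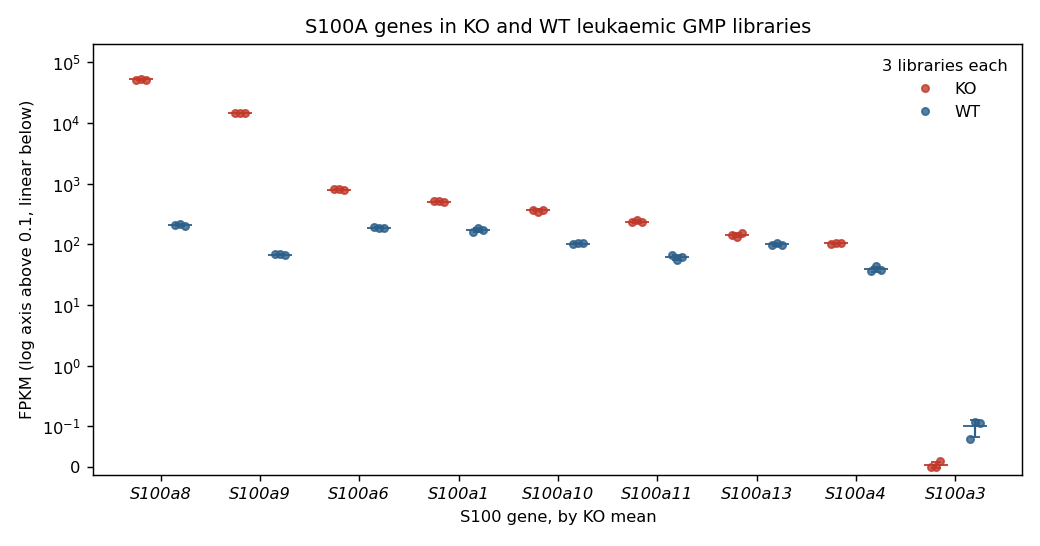
FPKM of the 9 S100 genes in each library, KO left of WT within each gene, on a log axis that turns linear below 0.1 (points, libraries; bars, mean ± SD, n = 3 each). S100a8 and S100a9 sit between 14516 and 52757 FPKM in KO and between 65.5 and 212 FPKM in WT, while S100a3 is the one gene at or near 0 in both groups.

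S100a8 (ENSMUSG00000056054, chr3:90668978-90670035, plus strand) encodes the smaller calprotectin subunit. It had 51561, 52757 and 51898 FPKM in the KO libraries, against 204, 212 and 199 FPKM in the WT libraries. Every KO library was far above every WT library, and the spread within a group was small beside that gap. The means were 52072 ± 617 FPKM in KO and 205 ± 6.71 FPKM in WT (SD, n = 3 each), a 254-fold difference (log2 fold change 7.98, SE 0.02, adjusted p = 3.55e-12 in limma). These means rested on 1341148 reads in KO and 6409 reads in WT, and S100a8 ranked 2 among all genes by its KO mean and 465 by its WT mean. It took 5.11 to 5.24% of the recovered reads of a KO library and 0.0225 to 0.0242% of those of a WT library. Recovered reads leave out genes whose values gave no whole reads, such as Lyz2, Elane and Cyba. With those genes counted, the S100a8 share would be smaller. The divisors implied by the FPKM values were larger than the recovered reads, at 11400436 to 12937928 in KO and 12710036 to 18096883 in WT. Whether these divisors are read totals is not stated, so no S100a8 share of them is given.

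S100a9 (ENSMUSG00000056071, chr3:90692632-90695721, minus strand), the gene of the larger subunit, changed to nearly the same extent. Its levels were 14516, 14643 and 14521 FPKM in the KO libraries, against 69.3, 68.2 and 65.5 FPKM in the WT libraries. The KO libraries differed from each other by less than 1% and lay far above the WT libraries. The means were 14559.7 ± 71.9 FPKM in KO and 67.7 ± 1.98 FPKM in WT, a 215-fold difference (log2 fold change 7.73, SE 0.02, adjusted p = 3.55e-12 in limma). By log2 fold change S100a8 ranked 3 and S100a9 ranked 4 of the 9108 tested genes.

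The partner genes kept close but not equal proportions. The S100a8 level was 3.55, 3.60 and 3.57 times the S100a9 level in the KO libraries, against 2.94, 3.11 and 3.04 times in the WT libraries. The KO ratios were all above the WT ratios, with means of 3.58 ± 0.0255 in KO and 3.03 ± 0.0851 in WT. The exact two-sided permutation test gave p = 0.1, the smallest that 3 against 3 libraries allow. On the log2 scale the difference in the ratio was 0.25, but under quantile normalization which replaces each library's values by the mean of the values at the same rank, it was -0.61.

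S100a6 and S100a4 encode calcyclin and metastasin, which bind cytoskeletal and scaffold proteins and are known from dividing and migrating cells. S100a6 (ENSMUSG00000001025, chr3:90612882-90624181, plus strand) had 807, 799.5 and 784 FPKM in the KO libraries, against 191, 187 and 185 FPKM in the WT libraries. It was 4.25-fold higher in KO, with log2 fold change 2.08, SE 0.02 and adjusted p = 1.17e-09 in limma, the largest fold of the family after the calprotectin genes. S100a4 (ENSMUSG00000001020, chr3:90603771-90606045, plus strand) had 102, 106 and 103 FPKM in the KO libraries, against 36.2, 43.2 and 37.0 FPKM in the WT libraries. Its groups stood apart by 2.67-fold (log2 fold change 1.40, SE 0.07, adjusted p = 8.92e-07 in limma). S100a4 shares 51.7% of its exonic bases with the predicted gene Gm42674, which was listed at 0 in every library.

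S100a10 and S100a11 encode the S100 proteins best known as annexin partners: S100A10, also called p11, has lost calcium binding and holds annexin A2 at the membrane, and S100A11 binds annexin A1. S100a10 (ENSMUSG00000041959, chr3:93555080-93564643, plus strand) had 374, 346 and 370 FPKM in the KO libraries, against 99.3, 103 and 106 FPKM in the WT libraries. The difference was 3.54-fold, with log2 fold change 1.81, SE 0.04 and adjusted p = 2.22e-08 in limma. S100a11 (ENSMUSG00000027907, chr3:93520488-93526287, plus strand) had 229, 249 and 232 FPKM in the KO libraries, against 65.6, 54.2 and 61.7 FPKM in the WT libraries. Its groups did not overlap either, and it was 3.91-fold higher in KO (log2 fold change 1.95, SE 0.07, adjusted p = 2.32e-07 in limma). Because 41.1% of the 50-base words of S100a11 also occur in 3 processed pseudogenes, their reads were added to it. The fold was then 3.62, the pseudogenes holding 15 to 49 reads in a library.

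S100a1 and S100a13, which start next to each other and run in opposite directions, differed in how far they rose. S100a1 (ENSMUSG00000044080, chr3:90511034-90514392, minus strand), best known from heart and muscle where it binds calcium-release channels, had 511, 507 and 497 FPKM in the KO libraries, against 162, 183 and 173 FPKM in the WT libraries. It was 2.93-fold higher in KO, with log2 fold change 1.55, SE 0.04 and adjusted p = 7.25e-08 in limma. S100a13 (ENSMUSG00000042312, chr3:90514435-90524581, plus strand), which helps cells release signals that lack a secretion sequence such as FGF1 and interleukin-1 alpha, had 141, 130 and 152 FPKM in the KO libraries, against 97.8, 105 and 96.1 FPKM in the WT libraries. Its groups stood apart too, but by 1.42-fold (log2 fold change 0.50, SE 0.06, adjusted p = 0.000176 in limma). With each library rescaled to equal sums of FPKM, which moves the median of all tested genes to -0.41, S100a13 was at 0.03 (adjusted p = 0.664), or 0.44 above that median. The S100a1 level was 3.62, 3.90 and 3.27 times the S100a13 level in the KO libraries, against 1.65, 1.74 and 1.80 times in the WT libraries (exact two-sided permutation p = 0.1). All KO ratios were above all WT ratios, and rescaling whole libraries leaves such ratios as they are.

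S100a3 (ENSMUSG00000001021, chr3:90560578-90602702, plus strand), known from the hair cuticle, was the one gene of the 9 below the minimum mean. It had 0, 0 and 0.0137 FPKM in the KO libraries, against 0.0695, 0.117 and 0.113 FPKM in the WT libraries. These values stand for 1 read in KO and 26 reads in WT. All KO libraries lay below all WT libraries, which also held for 41.6% of the tested genes. The WT level was 21.5 times the KO level, with a 95% exact counting interval of 3.53 to 881 that covers counting error only. With no minimum mean S100a3 was lower in KO by limma (log2 fold change -0.13, SE 0.02, adjusted p = 0.00545).

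The table holds 8 further S100 genes, and 1 of them, S100a5, was tested. S100a5, an S100 gene of olfactory neurons that lies between S100a4 and S100a6, had 1.99, 1.62 and 1.07 FPKM in the KO libraries, against 0.546, 1.79 and 0.985 FPKM in the WT libraries. The groups overlapped and the gene did not pass (log2 fold change 0.31, SE 0.23, adjusted p = 0.255 in limma) at 25 reads in KO and 23 in WT. Without WT replicate 2 its log2 fold change was 0.53 and its adjusted p = 0.0436 in limma. S100a7a, S100a14, S100a16, S100g and S100z had no read in any library, S100a2 had 1 read in a WT library, and S100b had 0 reads in KO and 5 in WT.

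Summed, the 9 genes held 68241, 69536 and 68559 FPKM in the KO libraries, against 925, 955.5 and 923 FPKM in the WT libraries. The family thus took 10.5 to 10.6% of a KO library's FPKM sum and 0.194 to 0.203% of a WT library's. The sum was 73.6-fold higher in KO (log2 difference 6.20, exact two-sided permutation p = 0.1, the smallest possible). S100a8 and S100a9 made up 96.9 ± 0.0496% of the family sum in KO and 29.2 ± 0.466% in WT (SD, n = 3 each). The other 7 genes together averaged 2147 ± 15.3 FPKM in KO and 662 ± 12.0 FPKM in WT, which is 3.24-fold. The order of levels also changed. In KO it ran S100a8, S100a9, S100a6, S100a1, S100a10, S100a11, S100a13, S100a4 and S100a3, with no overlap between neighbours in that order. In WT it ran S100a8, S100a6, S100a1, S100a10, S100a13, S100a9, S100a11, S100a4 and S100a3, where S100a10 overlapped S100a13 and S100a9 overlapped S100a11.

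The rise of the calprotectin genes over their relatives was compared within each library. The log2 ratio of S100a8 to S100a6 was 5.90 higher in KO than in WT, and the ratio to S100a11 was 6.03 higher. The ratio to S100a10 was 6.17 higher, to S100a1 6.44, to S100a4 6.58, to S100a13 7.49 and to S100a3 8.11, a value set by the 1 FPKM added to each level because S100a3 is near 0. Only the ratio to S100a9, at 0.25, was small. In each of these 8 ratios the 3 KO libraries stood above the 3 WT libraries, with an exact two-sided permutation p = 0.1, also 0.1 when adjusted over the 8.

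**Figure D2:**
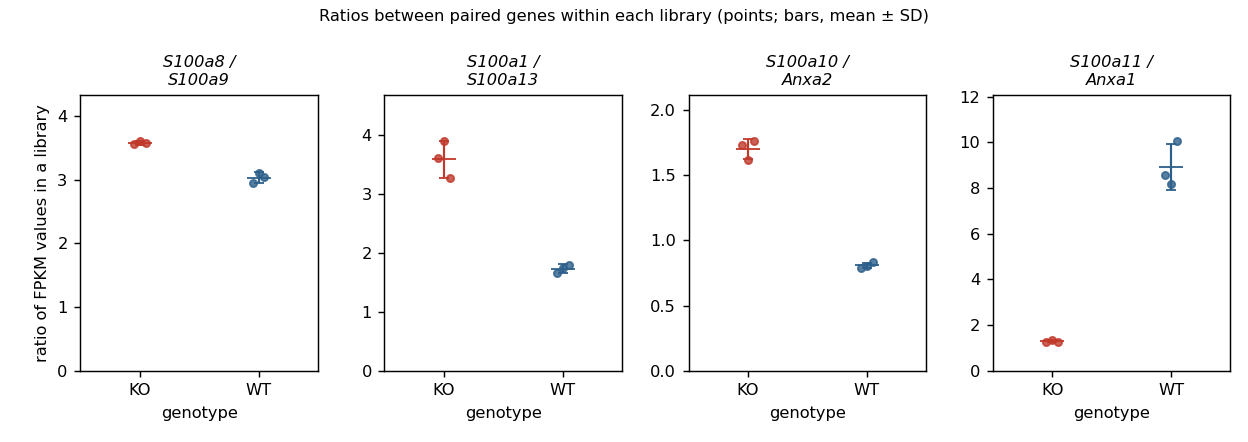
Ratio of FPKM values within each library for 4 pairs of genes, KO left of WT (points, libraries; bars, mean ± SD, n = 3 each; axes start at 0). The S100a8 to S100a9 ratio is 3.58 in KO and 3.03 in WT, whereas the S100a11 to Anxa1 ratio is 1.29 in KO and 8.93 in WT.

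Whether the rise extended to neighbours was read from every gene within 500 kb of the S100 genes on chromosome 3. The first S100 group, from S100a1 to S100a9, spans chr3:90511034-90695721 and holds 16 genes of the table, 7 of them tested. Of these 7, the 6 members were higher in KO and S100a5 did not pass, where 38.0% of all tested genes were called higher. The nearest tested genes on either side of S100a8 had the largest changes after it, S100a9 at 7.73 and S100a6 at 2.08. Further off, the change did not fall steadily with distance: S100a13 was at 0.50, but S100a1, 42 bases beyond it, was at 1.55. S100a8 and S100a9 are separated by 22596 bases, and the nearest S100 gene before S100a8, S100a7a, 10308 bases away, had no read in any library. S100a6, on the far side of S100a7a by 29835 bases, had the next largest fold.

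Outside the first group no tested gene within 500 kb had a rise as large as that of S100a4, at 1.40. Snapin, at 0.59, was above S100a13, at 0.50. Of 14 tested genes, all on the S100a1 side, 2 were higher, 7 lower and 5 not passed. Over all tested genes 38.0% were called higher, 40.4% lower and 21.6% not passed. The 14 had a median log2 fold change of -0.12, against -0.02 for all tested genes. Chtop, a chromatin target of arginine methylation, lies 1.54 kb from S100a1 and averaged 17.6 ± 1.43 FPKM in KO and 18.3 ± 1.11 FPKM in WT (log2 fold change -0.06, adjusted p = 0.479 in limma). Snapin, a SNARE-associated protein at 20 kb, averaged 37.4 ± 2.20 FPKM in KO and 24.5 ± 0.628 FPKM in WT (log2 fold change 0.59, adjusted p = 2.22e-05 in limma). Ilf2, an RNA-binding protein at 22.7 kb, averaged 17.7 FPKM in KO and 15.5 FPKM in WT, with log2 fold change 0.18 and adjusted p = 0.00454 in limma. With equal FPKM sums the Ilf2 value was -0.26 and the Chtop value -0.50, where the median of all tested genes was -0.41. On the S100a9 side no gene within 500 kb reached the minimum mean. The nearest tested gene there, Gm9774 at 1732 kb, did not pass (log2 fold change 0.60, adjusted p = 0.0829 in limma).

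The second group, S100a11 and S100a10, spans chr3:93520488-93564643. Within 500 kb of it the table has 50 genes, 40 of them at 0 in all 6 libraries. The 1 tested gene outside the group was Gm5278, a processed pseudogene 86.7 kb before S100a11, with 7.79, 7.15 and 7.70 FPKM in the KO libraries, against 1.71, 1.60 and 1.41 FPKM in the WT libraries. It was 4.79-fold higher in KO (log2 fold change 1.73, SE 0.07, adjusted p = 6.06e-07 in limma). Beyond 500 kb, Gm4202, also a processed pseudogene, at 830 kb before S100a11 averaged 6.64 FPKM in KO and 0.953 FPKM in WT (log2 fold change 1.94, adjusted p = 3.52e-05 in limma). Whether Gm5278 and Gm4202 share 50-base words with genes elsewhere was not tested. On the S100a10 side, Them4, a thioesterase at 745 kb, was at 0.74 (adjusted p = 0.000125) and Mrpl9, a mitochondrial ribosomal protein at 879 kb, at -0.76 (adjusted p = 2.39e-05). Snx27, a sorting nexin at 933 kb, did not pass at 0.04 (adjusted p = 0.711).

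**Figure D3:**
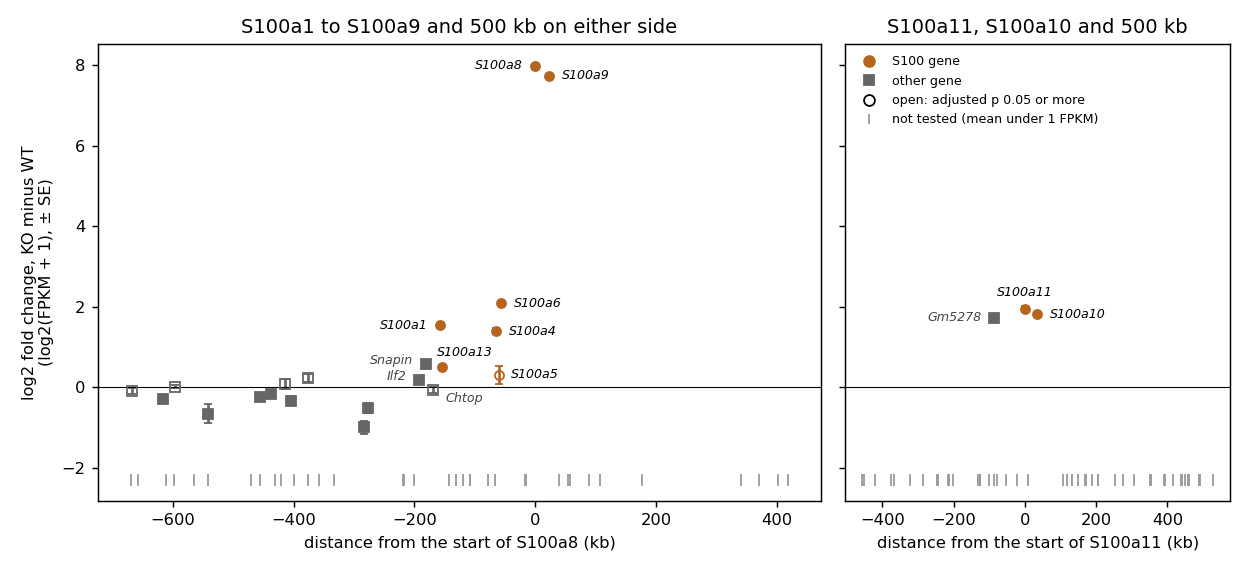
Log2 fold change (KO minus WT, on log2(FPKM + 1), ± SE) of genes on chromosome 3 by distance in kb from the start of S100a8 (left) or S100a11 (right), with S100 genes as circles, other genes as squares, open symbols for adjusted p of 0.05 or more and ticks for genes under the minimum mean. S100a8 and S100a9 stand at 7.98 and 7.73, the other S100 genes between 0.31 and 2.08, and the 14 tested genes outside the left group between -0.99 and 0.59.

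Of 24 partners and receptors of S100 proteins, 12 were tested, with 7 higher in KO, 4 lower and 1 not passed, where 38.0% of all tested genes were called higher and 40.4% lower. Their median log2 fold change was 0.58, and the summed level of all 24 was 1076 to 1114 FPKM in KO and 691 to 712 FPKM in WT. Anxa1, the annexin bound by S100A11, had 181, 184 and 183 FPKM in the KO libraries, against 7.66, 6.63 and 6.14 FPKM in the WT libraries (26.8-fold, log2 fold change 4.56, adjusted p = 5.37e-09 in limma). Anxa1 rose further than S100a11 did, so the S100a11 to Anxa1 ratio was 1.26, 1.35 and 1.27 in the KO libraries, against 8.56, 8.17 and 10.05 in the WT libraries (exact two-sided permutation p = 0.1). Anxa2, the partner of S100A10, moved less, with 213 ± 2.88 FPKM in KO and 127 ± 1.62 FPKM in WT (1.68-fold, log2 fold change 0.74, adjusted p = 1.05e-07 in limma). Here the ratio went the other way: S100a10 was at 1.73, 1.62 and 1.76 times Anxa2 in the KO libraries, against 0.793, 0.802 and 0.833 times in the WT libraries (exact two-sided permutation p = 0.1). Anxa6 was 1.12-fold higher in KO (log2 fold change 0.15, adjusted p = 0.0136 in limma). With equal FPKM sums Anxa6 was at -0.30, where the median of all tested genes was -0.41.

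Both listed partners known chiefly for calcyclin were lower in KO, while Anxa2, which also binds S100A6, was higher. Cacybp, the calcyclin-binding protein of a ubiquitin ligase complex, averaged 59.3 ± 1.28 FPKM in KO and 145 ± 4.56 FPKM in WT (log2 fold change -1.27, adjusted p = 5.05e-08 in limma). Sugt1, a co-chaperone that binds S100A6, averaged 68.6 FPKM in KO and 82.5 FPKM in WT (log2 fold change -0.26, adjusted p = 0.000397 in limma). Myh9, the nonmuscle myosin heavy chain bound by S100A4, was 3.64-fold higher in KO, at 3.69 FPKM in KO and 1.01 FPKM in WT (adjusted p = 3.98e-06 in limma).

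The cell surface receptors moved in both directions. Bsg, whose human counterpart binds extracellular S100A9, averaged 512 FPKM in KO and 283 FPKM in WT (1.81-fold, adjusted p = 1.25e-07 in limma). Alcam, an adhesion molecule reported to bind S100A8 and S100A9 in human cells, had 814 reads in KO and 0 in WT, at least 328-fold higher against a floor of 3 reads over the group. Plaur, the urokinase receptor of the plasminogen system in which S100A10 acts, was 2.03-fold higher in KO (adjusted p = 3.18e-05 in limma). Cd33, a receptor of myeloid cells whose human counterpart binds S100A9, had 0 reads in KO and 2043 in WT, at least 563-fold lower. Cd69, an S100A8 and S100A9 receptor known from T cells, averaged 0.620 FPKM in KO and 8.99 FPKM in WT (log2 fold change -2.63, adjusted p = 1.05e-07 in limma). Ly96, the co-receptor of TLR4, did not pass (log2 fold change 0.42, adjusted p = 0.0504 in limma).

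The 2 best known receptors of calprotectin lay under the minimum mean and were not tested. Tlr4 had 0.324, 0.284 and 0.403 FPKM in the KO libraries, against 0.878, 0.955 and 0.868 FPKM in the WT libraries. Ager, the receptor for advanced glycation end products, had 1.28, 1.15 and 1.23 FPKM in the KO libraries, against 0.110, 0.0774 and 0.132 FPKM in the WT libraries. All KO values were thus below WT for Tlr4 and above WT for Ager, at levels of 70 and 97 reads in KO. Such separation was common: of the tested genes, 39.1% had all KO libraries above all WT libraries and 41.6% all below. Among the other untested genes, Ahnak averaged 0.996 FPKM in KO and 0.0901 FPKM in WT, Anxa11 0.902 FPKM in KO and 0.135 FPKM in WT, and Hltf 1.198 FPKM in KO and 0.317 FPKM in WT, each with all KO libraries above all WT libraries. Cd14 averaged 0.225 FPKM in KO and 1.22 FPKM in WT and Il1a had 0 reads in KO and 12 in WT, with all KO libraries below all WT libraries. Nptn overlapped between the groups, and Fgf1, Syt1, Cd36 and Mcam were at 0 in every library.

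Of 10 transcription factors reported to act on S100a8 and S100a9, all were tested, with 7 higher in KO, 2 lower and 1 not passed (median log2 fold change 0.40), where 78.4% of all tested genes were called in either direction, 38.0% as higher. The C/EBP factors of the granulocytic lineage were among the 7. Cebpb had 59.6, 59.0 and 54.3 FPKM in the KO libraries, against 8.84, 7.79 and 8.16 FPKM in the WT libraries (6.98-fold, adjusted p = 2.73e-08 in limma), though 20.7% of its exonic bases overlap another gene. Cebpd averaged 173 ± 6.89 FPKM in KO and 36.6 ± 1.60 FPKM in WT (4.73-fold, adjusted p = 1.68e-08 in limma), Cebpe was 1.53-fold and Cebpa 1.59-fold higher, though with equal FPKM sums Cebpa did not pass (log2 fold change 0.17, adjusted p = 0.191). Stat3, a cytokine-activated factor, was 2.15-fold higher, at 6.44 FPKM in KO and 2.99 FPKM in WT (adjusted p = 7.70e-05 in limma). Nfkb1 averaged 2.75 ± 0.0613 FPKM in KO and 12.1 ± 0.359 FPKM in WT (log2 fold change -1.80, adjusted p = 1.23e-07 in limma), and Myb, a factor of immature cells, was lower at -0.60 (adjusted p = 0.000464). Spi1, which encodes PU.1, and Rela were higher at 0.26 and 0.18. With equal FPKM sums they were at -0.21 and -0.27, where the median of all tested genes was -0.41. Under that scaling 4 factors were higher and 5 lower, beside 2074 of all 9108 tested genes higher and 5383 lower. Hif1a did not pass (log2 fold change 0.12, adjusted p = 0.0643 in limma).

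The genes listed for the phagocyte oxidase, to which calprotectin delivers arachidonic acid, moved in both directions. Of the 5 genes listed for it, all tested, 2 were higher, 2 lower and 1 not passed, with a median log2 fold change of -0.0076, beside 38.0% of all tested genes called higher and 40.4% called lower. With equal FPKM sums, with or without the S100 genes, and under quantile normalization, 1 was higher and 4 were lower. Of all 9108 tested genes, 2074 were higher and 5383 lower with equal sums. Without the S100 genes these counts were 2473 and 4813, and under quantile normalization 3532 and 3627. Cybb, the catalytic gp91phox subunit, had 7.09, 6.96 and 6.53 FPKM in the KO libraries, against 0.0135, 0 and 0 FPKM in the WT libraries, from 1479 reads in KO and 1 in WT (ratio 1789, 95% exact counting interval 321 to 70705). Its membrane partner Cyba averaged 3593 FPKM in KO and 2982 FPKM in WT (log2 fold change 0.27, adjusted p = 2.91e-06 in limma). With equal FPKM sums Cyba was at -0.20, where the median of all tested genes was -0.41. Of the cytosolic subunits, Ncf4 was lower at -0.50 (adjusted p = 6.00e-06) and Ncf1 at -0.28 (adjusted p = 0.00188). Rac2, the small GTPase of the complex, did not pass, at -0.0076 (adjusted p = 0.746 in limma), but was called lower with equal FPKM sums at -0.48, with equal sums without the S100 genes at -0.32, under quantile normalization at -0.16 and under cyclic loess at -0.046.

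**Figure D4:**
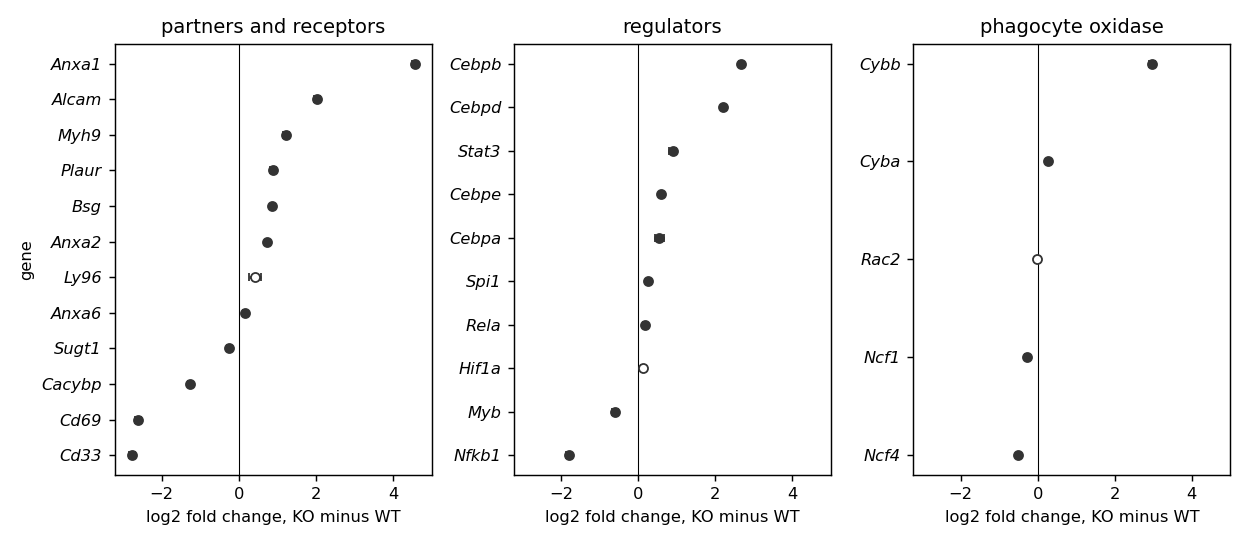
Log2 fold change (KO minus WT, on log2(FPKM + 1); bars, SE) of the tested S100 partners and receptors, regulators and oxidase genes, with open circles for adjusted p of 0.05 or more. Anxa1 leads the partners at 4.56, Cebpb the regulators at 2.66 and Cybb the oxidase at 2.97, while Cd33 is lowest at -2.77.

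Markers of maturing granulocytes stood beside the S100 rise. Of 15 neutrophil markers, 10 were tested and all 10 were higher in KO, where 38.0% of all tested genes were called higher. The summed level of all 15 was 6120 to 6165 FPKM in KO and 128 to 134 FPKM in WT. Besides Ngp and Ltf, the largest changes were Ifitm6 (60.9-fold) and Wfdc21 (56.5-fold). Fcnb, Ly6g and Retnlg were at 0 in every WT library, and Mmp9, a gelatinase of late granules, was at 0 in every KO library.

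Of 10 monocyte markers, 6 were tested, with 2 higher and 3 lower, where 38.0% of all tested genes were called higher and 40.4% lower. The monocyte sums of 9601 to 10363 FPKM in KO and 705 to 727 FPKM in WT were led by Lyz2 (lysozyme). Lyz2 averaged 9869.7 FPKM in KO and 273 FPKM in WT. Klf4, a transcription factor, had 292 reads in KO and 0 in WT, at least 118-fold higher. Ly6c2 averaged 110.4 FPKM in KO and 387 FPKM in WT, Ms4a6c averaged 1.98 FPKM in KO and 18.7 FPKM in WT (53.1% of its exonic bases overlap another gene), and Ccr2 and F13a1 were at 0 in every KO library. Of 13 basophil, mast cell and eosinophil markers, 9 were tested and all were higher in KO, beside that 38.0% of all tested genes. Prg2, Prss34, Gata1 and Cpa3 led them, with list sums of 595 to 624 FPKM in KO and 32.9 to 39.0 FPKM in WT. In that list 7 genes were at 0 in every WT library, and 2 of these, Il5ra and Mcpt1, were at 0 in every KO library as well. Of 12 erythroid markers, 7 were tested and all were higher, beside the same 38.0%. Car2, Blvrb, Klf1 and Hbb-bt led them, with list sums of 219 to 225 FPKM in KO and 33.9 to 37.3 FPKM in WT. The B cell sums of 55.9 to 58.2 FPKM in KO and 83.6 to 91.2 FPKM in WT joined Cd79b, at 2.48 FPKM in KO and 54.6 FPKM in WT, with Ighm, at 54.4 FPKM in KO and 33.7 FPKM in WT. T cell sums were 0.709 to 1.23 FPKM in KO and 2.12 to 2.26 FPKM in WT, with 1 gene tested, Lck. Dendritic cell sums were 40.6 to 44.6 FPKM in KO and 23.6 to 26.0 FPKM in WT, with 1 gene tested, H2-Ab1. Of the GMP markers, the largest changes were Cd34, Elane (4.51-fold higher), Prtn3 (4.35-fold higher) and Fcgr2b (at 4.19 FPKM in KO and 14.9 FPKM in WT). Their part in the S100 levels was not tested.

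The genes nearest to the mean profile of S100a8 and S100a9 were sought by Euclidean distance over the 6 libraries, on log2(FPKM + 1) minus the WT mean. Prg2, the eosinophil major basic protein, was nearest at a distance of 0.605, with 315, 295 and 287 FPKM in the KO libraries, against 0, 0 and 0.0846 FPKM in the WT libraries. Ldhb, a lactate dehydrogenase subunit, followed at 1.19 and Ltf, the neutrophil granule protein lactoferrin, at 1.23. Ltf averaged 155 ± 1.49 FPKM in KO and 0.0959 ± 0.0822 FPKM in WT, and Ngp, neutrophilic granule protein, at a distance of 1.51, averaged 4568 ± 31.2 FPKM in KO and 9.83 ± 0.653 FPKM in WT. The fifth, Rps4l, a transcribed pseudogene of a ribosomal protein, was already at 3.15. None of the 5 lies on chromosome 3. Prg2, Ldhb, Ltf and Rps4l were near 0 in WT, so their distances depend on the 1 FPKM added to each level. Without it, their KO means were 10599.5, 4642, 1614 and 2399 times their WT means. For S100a8, S100a9 and Ngp the KO means were 254, 215 and 465 times the WT means.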

How the data were processed

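RNA was measured in 3 KO and 3 WT L-GMP libraries made with Smart-seq2 and Nextera XT from cells sorted into Trizol, per the labels' protocols. Per the submitters' processing notes the tools were CASAVA, bcl2fastq, STAR 2.5.3a and DESeq2 1.18.1, with build mm10; the read counter and strand setting are not stated there. The authors deposited FPKM values for 47643 genes. Of the genes above 0, 16481 (78.0%), all 9 S100 genes among them, gave whole reads within 0.001 at their GENCODE M21 exonic length; these give the reads quoted. Genes averaging 1 FPKM or more were tested on log2(FPKM + 1), pseudocount 1, in limma 3.58.1 (R 4.3.3) with a mean-variance trend, two-sided, at an adjusted p of 0.05; fold changes understate low genes. Ratios and sums used exact permutation (scipy 1.17.1). A group without reads got a floor of 3 reads. Intervals and floors cover counting error only: reads lack molecular identifiers, so PCR copies count more than once. Replicates differed by more than sampling noise (mean chi-square per gene 2.54 to 3.27). The fit was tested on simulated data. Named genes were all S100 genes, tested chromosome 3 genes between the S100 genes and the 3 nearest on each side of either group, every tested gene of the partner, regulator and oxidase lists as used here, the 4 largest changes of each other list and the 5 most alike genes; Kit, Ctsg, the untested partners and markers at 0 were named after their values were seen. The oxidase and EF-hand lists leave out genes that are not reported here, so their counts are over shortened lists. The members and lists were chosen with earlier results of these data known. Promoters came from RefSeq (GRCm38.p6). Scaling, filter, pseudocount, trend, replicate block, left-out libraries and limma-voom on reads were varied.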

Additional observations from a re-analysis of the deposited data

How the results depend on the processing

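S100a8, S100a9, S100a6, S100a1, S100a10, S100a11 and S100a4 were higher in KO past the threshold under all 17 alternatives tried, S100a8 between 6.43 and 8.01 on the log2 scale. With libraries rescaled to equal FPKM sums, S100a13 was at 0.031, genes called higher were 2074, the summed level difference was 5.73 and 27.8% of calls were higher, against 48.5% as deposited. Equal sums without the 9 genes, which move the median of all genes to -0.28, gave 5.89 for the summed level and 33.9% for the calls. Quantile normalization gave 4.93 for the sum and -0.61 for the S100a8 to S100a9 ratio, and cyclic loess 6.11 and 0.15. A minimum mean of 5 FPKM gave 2072 genes higher and 2383 lower. No filter gave 5769 lower, and 1 S100 gene of the 9 lower, S100a3.

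Under equal sums, and equal sums without the 9 genes, directions turned for Ilf2 (-0.26, -0.11), Snx27 (-0.32, -0.20), Spi1 (-0.21, -0.053), Cyba (-0.20, -0.043), Anxa6 (-0.30, -0.15), Hif1a (-0.30, -0.16) and Rela (-0.27, -0.12). The median of all tested genes was at -0.41 and -0.28 in these settings, and each of these values lay above it. Cyba was at -0.78 under quantile normalization, and under cyclic loess Chtop was at 0.037; apart from the scaling itself, the cause was not tested. Leaving out each library kept all 8 tested S100 genes higher, with 3305 to 3380 genes higher and 3507 to 3603 lower, a ratio difference of 0.23 to 0.27 and a sum difference of 6.19 to 6.22. Those ranges were 7.96 to 8.01 for S100a8, 7.71 to 7.75 for S100a9 and 0.44 to 0.55 for S100a13. Chtop ranged from -0.10 to 0.0069, Snx27 from -0.028 to 0.11 and Rac2 from -0.017 to 0.0076. Same-numbered libraries did not deviate together over all tested genes (r from -0.0166 to 0.00946, against -0.0168 to 0.0278 for other pairs). This cannot tell whether same-numbered libraries were handled together. With a replicate block, 3420 genes were higher, 3620 lower and 8 S100 genes higher. Depth limits S100a3, S100a5 and the S100 genes at 0, where a difference was not detectable or rests on few reads.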

Other observations

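Calcium-binding EF-hand proteins outside the S100 family were higher in KO more often than lower as deposited. Of 28 genes listed, 24 were tested, with 18 higher, 4 lower and 2 not passed, and a median log2 fold change of 0.46, beside 38.0% of all tested genes called higher. With equal FPKM sums the counts were 10 higher and 10 lower, where 2074 of all 9108 tested genes were higher and 5383 lower. Stim1, the calcium sensor of the endoplasmic reticulum, had 13.02, 13.5 and 15.3 FPKM in the KO libraries, against 3.54, 3.55 and 4.04 FPKM in the WT libraries (3.76-fold, log2 fold change 1.66, adjusted p = 9.86e-07 in limma). Micu2, a regulator of the mitochondrial calcium uniporter, averaged 5.23 ± 0.157 FPKM in KO and 22.7 ± 0.843 FPKM in WT (log2 fold change -1.93, adjusted p = 5.86e-08 in limma). Calu, a calcium-binding protein of the secretory pathway, was 5.49-fold higher in KO, at 7.22 FPKM in KO and 1.31 FPKM in WT (adjusted p = 1.17e-06 in limma). Calml4, a calmodulin-like gene, was listed at 0 in every KO library and had 29.5, 31.4 and 24.0 FPKM in the WT libraries.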
